A study of Rattus norvegicus with 8 samples.

Results

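The 4 Id genes and 6 genes of BMP signalling were followed in lumbar spinal cord after chronic water avoidance (WA) stress, in stressed and control rats. The 10 members were taken by gene name from all probes that are not array controls, out of 26514 gene names on the array. They are Id1, Id2, Id3 and Id4, the ligands Bmp2 and Bmp4, the receptors Bmpr1a and Bmpr2, and the signal transducers Smad1 and Smad5. Each member has 1 probe, and each probe was well above background on all 8 arrays. Id4 was selected on its measured difference between stressed and control rats, so its values are given as a description with no test. The other 9 members were taken because they belong to the same family or pathway.

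Stressed rats were 4 male Wistar rats, 12 weeks old, that were placed daily for 10 days on a platform surrounded by water, and lumbar L6S1 cord was taken 24 h after the last session. Control rats were 4 male Wistar rats of the same age, which the study describes as handled. RNA of each rat was hybridised to 1 Agilent one-colour rat gene expression array. The 8 arrays shared 1 slide, where row 1 held every stressed rat and row 2 every control, so that slide row and group cannot be told apart.

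Bone morphogenetic proteins (BMPs) are secreted ligands that bind pairs of type I and type II serine/threonine kinase receptors. The type I receptor then phosphorylates the Smad1, Smad5 and Smad9 proteins, which join Smad4, enter the nucleus and switch on target genes, among them the Id genes. Id proteins carry a helix-loop-helix domain but no DNA-binding region, so they pair with other helix-loop-helix factors and keep them off DNA. In the nervous system they are known for holding back the differentiation of neural and oligodendrocyte precursors, and BMP signalling is known for favouring astrocytes.

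Levels are the log2 of the processed signal minus the 75th percentile of the same array, so they may be compared between rats for 1 probe but not between probes. Before scaling, this percentile lay between 1751 and 2335 signal units, and each array had 23005 to 24066 probes well above background. Differences are stressed minus control on the log2 scale with the standard error of limma, and a gene was called at a Benjamini-Hochberg adjusted p below 0.1 over the 23678 tested probes. Of these probes, 885 were called, 655 higher and 230 lower in stressed rats, and 58.1% of calls were higher after quantile normalization in place of 74.0%. P values measure the spread between rats, and the number of arrays limits their precision.

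The array of control replicate 2 stood apart from the other controls. On the first principal component of all tested probes, which held 54.1% of the variance, it lay at -46.1, beyond the stressed rats at -34.5 to -8.23, while the other 3 controls lay between 39.4 and 56.3. The 5′ minus 3′ value compares the ends of transcripts. For 1887 transcripts with probes spaced by 300 bases or more, the log2 signal nearer the 3′ end was subtracted from that nearer the 5′ end and centred, and the median was taken for each array. This value was 0.22 for control replicate 2 and ranged from 0.09 to 0.17 for stressed rats. The other controls had values of -0.30, -0.30 and -0.18. Where leaving out control replicate 2 brought a gene named here past the threshold, or turned a difference, both values are given.

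Id4 and Id2 had the highest differences among the 10 members, at 0.96 ± 0.14 (SE, n = 4 and 4) and 1.07 ± 0.33 (SE, n = 4 and 4). Id1 and Id3, the other two genes of the family, differed by -0.23 ± 0.16 and -0.02 ± 0.14 (SE). Bmpr2 differed by 0.73 ± 0.35 (SE), and the ligands, Bmpr1a and both Smads by between -0.31 and 0.17. With limma, 0 of the 9 members other than Id4 were called, beside 3.74% of all tested probes. At an unadjusted p below 0.05, 2 of these 9 members passed, Id2 and Bmp2, beside 20.3% of all tested probes. The arrays measured whole tissue, in which fewer cells of a type and less RNA per cell cannot be told apart.

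Among the ligands, Bmp2 encodes a secreted factor that signals mainly through Bmpr1a, Bmpr1b and Bmpr2. Its probe lies at chr3:121381127-121381186 on the plus strand of rn4. The level of Bmp2 was -4.02, -3.98, -3.79 and -4.08 in stressed replicates 1 to 4 and -3.34, -3.71, -3.76 and -3.83 in control replicates 1 to 4. All stressed rats but replicate 3 lay below every control, and control replicate 1 was the highest. The difference was -0.31 ± 0.12 (limma, adjusted p = 0.227), and without control replicate 2 it was -0.32. This was a dim probe, with a processed signal of 108 to 139 units in stressed rats and 140 to 211 in controls. With normexp background correction the difference was -0.15, and with quantile normalization it was -0.47.

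Bmp4, the closest relative of Bmp2 among the ligands, has its probe at chr15:22283362-22283421 on the minus strand. Its level was -0.65, -0.65, -0.53 and -1.25 in the stressed rats and -1.003, -0.33, -0.60 and -0.88 in the controls. The groups overlapped, and stressed replicate 4 was the lowest of all 8 rats. The difference was -0.07 ± 0.20 (limma, adjusted p = 0.864), with a 95% interval from -0.53 to 0.40. Without control replicate 2 the difference was 0.06.

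The Bmp2 and Bmp4 probes lie over matching stretches of the 2 transcripts, and are shown because of their likeness. Binding of either transcript to the other probe was not tested. They are given over the 46 bases that they share when aligned, with the 10 bases that differ in capitals.
Bmp2: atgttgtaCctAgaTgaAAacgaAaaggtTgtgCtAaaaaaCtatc
Bmp4: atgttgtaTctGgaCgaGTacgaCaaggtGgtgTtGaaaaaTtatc
The other 36 bases, 78.3% of the stretch, were the same, and no other pair of member probes was above 58.8% in its best alignment over at least 20 bases.

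Among the receptors, Bmpr1a is a type I receptor, the kinase that phosphorylates the Smads. Its probe lies at chr16:10062311-10062370 on the minus strand. The level was -1.20, -0.95, -0.66 and -0.95 in the stressed rats and -1.13, -1.13, -0.88 and -0.79 in the controls. The ranges overlapped nearly in full. The difference was 0.04 ± 0.14 (limma, adjusted p = 0.873), with a 95% interval from -0.27 to 0.36, and without control replicate 2 it was -0.01.

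Bmpr2 is the type II receptor that activates the type I receptors, and its probe lies at chr9:58433667-58433726 on the plus strand. Its level was -1.49, -1.17, -1.08 and -1.08 in the stressed rats and -1.57, -1.54, -3.07 and -1.55 in the controls. All stressed rats lay above all controls, but stressed replicate 1 was within 0.1 of 3 of the controls, and control replicate 3 was far below every other rat. The difference was 0.73 ± 0.35 (limma, adjusted p = 0.277), and without control replicate 3 it was 0.35. Of the 9 members other than Id4, Bmpr2 was the 1 at which all stressed rats lay above all controls, beside 6.65% of all tested probes. All stressed rats lay below all controls at 0 of these 9 members, beside 5.44% of all tested probes.

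Smad1 and Smad5 are the receptor-activated Smads of the BMP branch. Smad1 has its probe at chr19:30408281-30408340 on the plus strand, printed in 10 spots, and its level was -1.24, -1.41, -1.16 and -1.11 in the stressed rats and -1.20, -1.37, -1.15 and -1.13 in the controls. The ranges were nearly the same in both groups, and the difference was -0.02 ± 0.09 (limma, adjusted p = 0.925). Its 95% interval, from -0.23 to 0.20, was the narrowest of the 10 members.

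The Smad5 level was -2.70, -2.84, -3.01 and -3.07 in the stressed rats and -3.13, -2.66, -3.35 and -3.14 in the controls. Control replicate 2 was the highest of all 8 rats, and the other 3 controls lay below all stressed rats. The difference was 0.17 ± 0.16 (limma, adjusted p = 0.561) with all arrays and 0.30 without control replicate 2 (limma, adjusted p = 0.0772). The probe, at chr17:13814377-13814436 on the minus strand, ends on the stop codon, here in capitals, and so covers the codons of the C-terminal serines that BMP receptors phosphorylate.
Smad5: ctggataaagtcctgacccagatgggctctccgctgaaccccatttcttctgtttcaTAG
It is shown because the site of Smad activation lies within the measured stretch, although an array reports the transcript and not its phosphorylated protein.

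**Figure D1:**
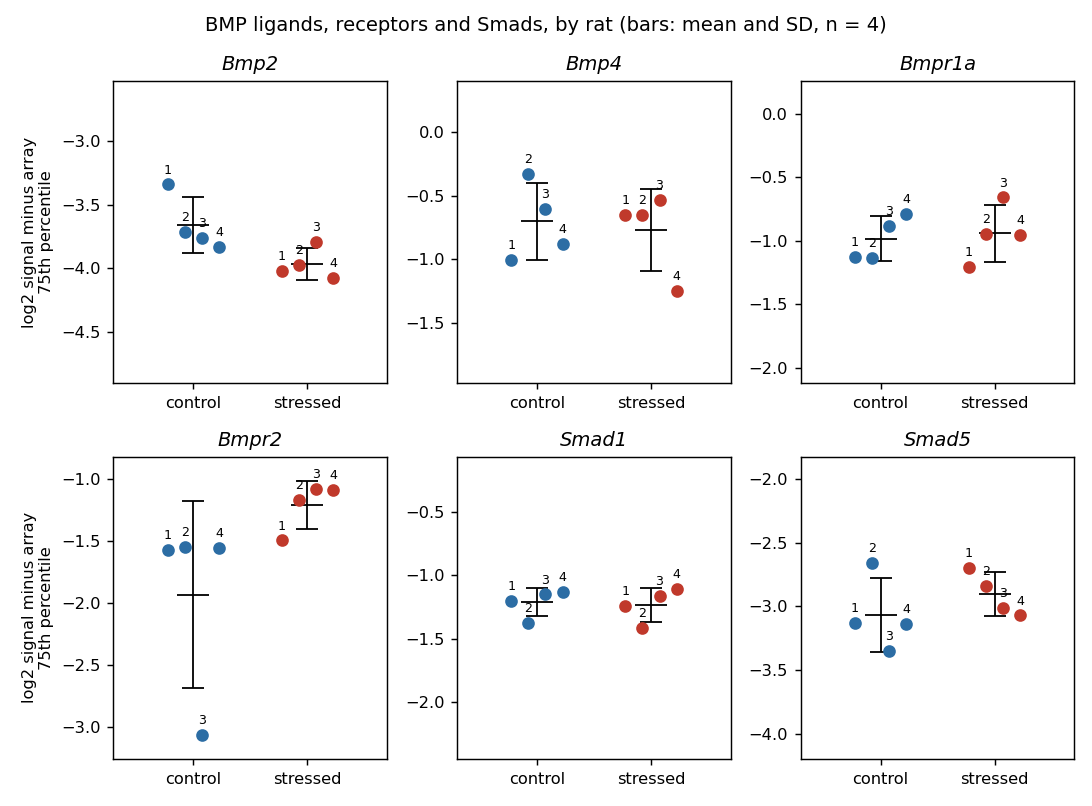
Level of the 6 BMP members in each rat, as log2 signal minus the 75th percentile of the array, with numbers for replicates and bars for the mean and SD of 4 rats. All stressed and control rats overlap except at Bmpr2, where control replicate 3 lies at -3.07 and the other 3 controls between -1.57 and -1.54.

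Id4 is the Id gene that the comparison turns on. It encodes an inhibitor of helix-loop-helix factors that is known in the cord for acting in neural and oligodendrocyte precursors and in astrocytes. Its probe lies at chr17:22525459-22525518 on the minus strand and starts at base 1399 of the transcript in the array annotation. The central 30 of its 60 bases identify the stretch that was measured.
Id4: gatgggaacctttgtatttgaagtgtacat
All 3 reading frames of the 60 bases hold a stop codon, so the probe does not lie wholly in coding sequence. Coding ends were not analysed here, because no rn4 annotation was read.

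The level of Id4 was 0.75, 0.80, 0.91 and 0.83 in stressed replicates 1 to 4 and -0.37, 0.26, -0.22 and -0.22 in control replicates 1 to 4. All stressed rats lay above all controls, and control replicate 2 was the control nearest to them. The processed signal was 2940 to 3625 units in stressed rats and 1654 to 2211 in controls. The means were 0.82 ± 0.07 and -0.14 ± 0.28 (SD, n = 4 each), a 1.95-fold higher signal in stressed rats. The stressed rats spanned 0.17 and the controls 0.64, so most of the spread came from the control group. Without control replicate 2 the difference was 1.10, and when any 1 array was left out it lay between 0.88 and 1.10.

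Id2, which is known in oligodendrocyte precursors for holding back their maturation, is the other Id gene with a large difference. Its level was 0.50, 0.54, 0.83 and 0.59 in the stressed rats and -0.94, 0.61, -0.87 and -0.60 in the controls. Control replicate 2 lay within the stressed rats, and the other 3 controls were more than 1 log2 unit below all of them. The difference was 1.07 ± 0.33 (limma, adjusted p = 0.149), with a 95% interval from 0.31 to 1.82 and a 2.09-fold higher mean in stressed rats. Without control replicate 2 it was 1.42 (limma, adjusted p = 0.000714). The difference of Id4 minus that of Id2 was -0.10, less than the standard error of either.

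The Id2 probe spans 350 bases of chromosome 6, chr6:42782548-42782897 on the minus strand, so its 60 bases cross an intron and match spliced RNA. It is shown for this reason, with its stop codon in capitals.
Id2: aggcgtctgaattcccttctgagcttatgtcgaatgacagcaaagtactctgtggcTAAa

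Id1 is the Id gene most often used as a direct readout of BMP-activated Smads, and its difference had the opposite sign to those of Id4 and Id2 and did not pass the test. Its probe, at chr3:143087157-143087216 on the plus strand, was printed in 10 spots. The level was -1.54, -1.60, -1.26 and -1.62 in the stressed rats and -0.97, -1.68, -1.23 and -1.23 in the controls. Control replicate 2 was the lowest of all 8 rats, and the other 3 controls lay above all stressed rats. The difference was -0.23 ± 0.16 (limma, adjusted p = 0.430), and without control replicate 2 it was -0.36 (limma, adjusted p = 0.0499). The difference of Id4 exceeded that of Id1 by 1.19.

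Id3, a further BMP target that is often expressed together with Id1, showed no such order. Its probe lies at chr5:154935647-154935706 on the plus strand. The level was -2.71, -2.61, -2.18 and -2.75 in the stressed rats and -2.39, -2.54, -2.55 and -2.70 in the controls. The controls lay within the range of the stressed rats, of which replicate 3 was the highest. The difference was -0.02 ± 0.14 (limma, adjusted p = 0.946), with a 95% interval from -0.34 to 0.30. The difference of Id4 exceeded that of Id3 by 0.98.

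**Figure D2:**
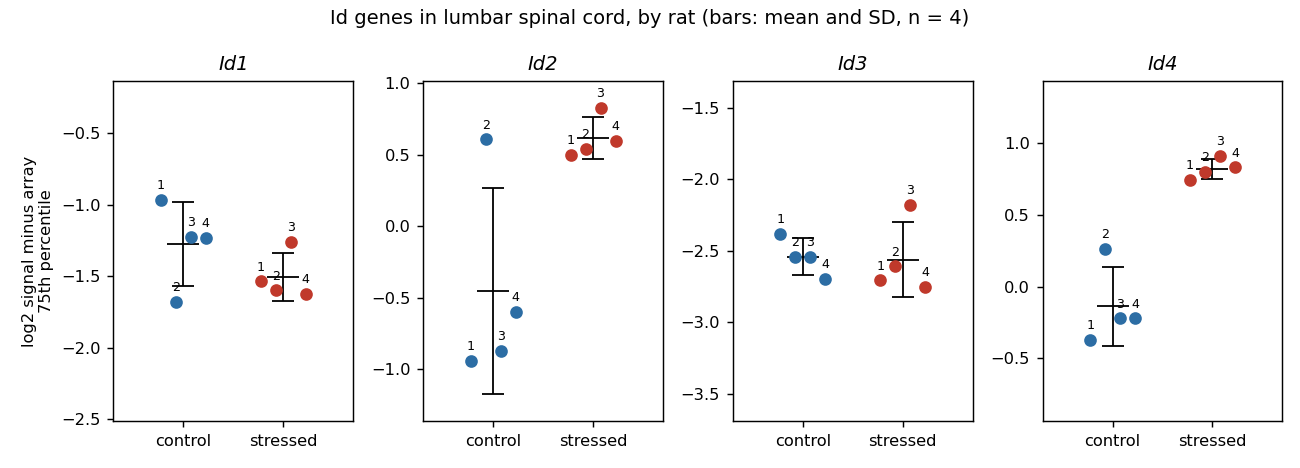
Level of the 4 Id genes in each rat, as log2 signal minus the 75th percentile of the array, with numbers for replicates and bars for the mean and SD of 4 rats. At Id4 the stressed rats lie between 0.75 and 0.91, above all controls, while at Id2 control replicate 2 lies at 0.61, among the stressed rats.

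Without control replicate 2, limma called 3 of the 9 members other than Id4, namely Id2, Id1 and Smad5, beside 42.4% of all tested probes. When any 1 of the other 7 arrays was left out, 0 of these 9 members were called, beside at most 72 of the 23678 tested probes.

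The levels of Id2, Id4, Smad5, Id1 and Bmpr2 were ordered with the 5′ minus 3′ value of the arrays. The 5 arrays with the highest values were those of the 4 stressed rats and of control replicate 2. They were also the 5 arrays with the highest levels of Id2, Id4, Smad5 and Bmpr2 and the 5 with the lowest levels of Id1. At Bmpr2 the margin was small, with control replicate 2 at -1.5423 and control replicates 4 and 1 at -1.5519 and -1.5685. Apart from control replicate 2, the 5′ minus 3′ value was higher in every stressed rat than in every control. Fits with it as a covariate therefore relied mostly on that array to tell the value from the group. With this value as a covariate in limma, the difference was 0.66 for Id4 and 0.25 for Id2 (adjusted p = 0.272 for Id2). With the same covariate it was 0.06 for Id1 (limma, adjusted p = 0.832) and -0.16 for Smad5 (limma, adjusted p = 0.481), so both changed sign. For Bmpr2 the difference was 0.36 with the covariate (limma, adjusted p = 0.676), against 0.73 without it. Over the 8 arrays the correlation r with the 5′ minus 3′ value was 0.98 for Id2, 0.87 for Id4 and 0.83 for Smad5. It was 0.65 for Bmpr2 and -0.82 for Id1. Control replicate 2 had the highest 5′ minus 3′ value of all arrays and an Id4 level 0.48 below the lowest stressed rat. A gap of this kind is favoured by the selection of Id4 on its group difference. The part of RNA coverage in these differences was not tested further.

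**Figure D3:**
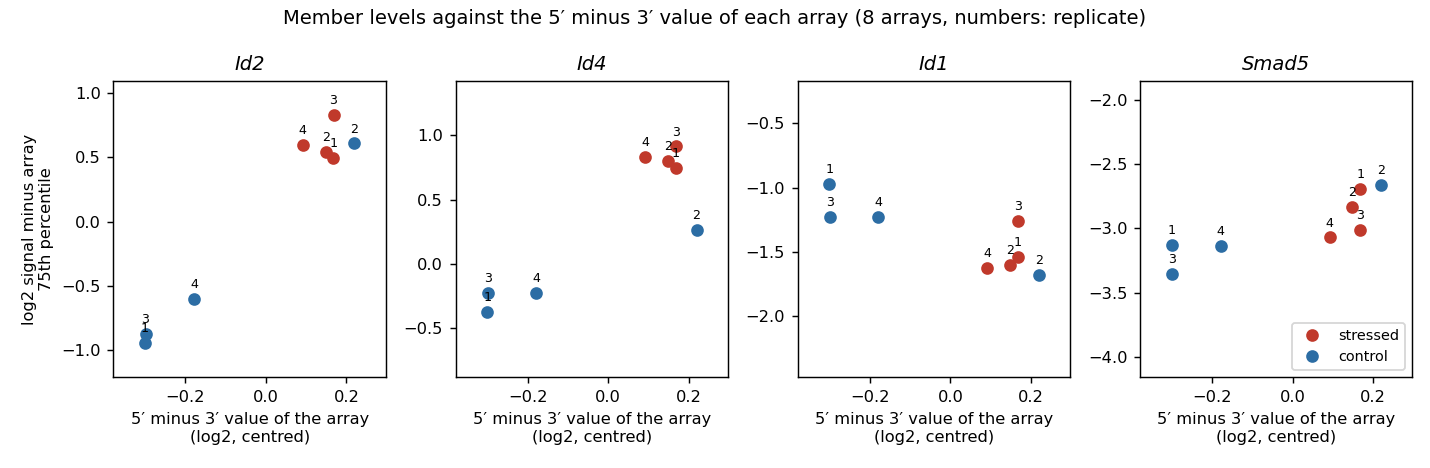
Level of Id2, Id4, Id1 and Smad5 in each rat (log2 signal minus the 75th percentile of the array) against the 5′ minus 3′ value of its array (log2, centred), with numbers for replicates. Control replicate 2, at 0.22 on the horizontal axis, lies with the stressed rats at Id2, Id1 and Smad5 and between the groups at Id4.

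The oligodendrocyte and astrocyte marker lists had differences of the same sign as Id2 and Id4, at 0.46 and 0.25, within the spread between rats. This sign was not particular to them, as the lists of oligodendrocyte precursors, microglia, neurons, motor neurons and endothelial cells differed by 0.03 to 0.09. The lists of Schwann cells, meninges and fibroblasts, and red blood cells differed by -1.01, -0.38 and -0.16. The mean level over 8 oligodendrocyte markers was 3.68 to 4.10 in stressed rats and 3.23 to 3.93 in controls (exact permutation test, two-sided, p = 0.0857), and control replicate 2 was the highest control. For 10 astrocyte markers it was 2.92 to 3.14 in stressed rats and 2.65 to 3.09 in controls (exact permutation test, two-sided, p = 0.114). Of the oligodendrocyte markers, 7 of 8 had a difference above 0 and 1 was called, the myelin gene Mog at 0.90 ± 0.18 (limma, adjusted p = 0.0721). Of the astrocyte markers, 8 of 10 had a difference above 0 and 0 were called, beside 3.74% of all tested probes called. In the other 8 lists, the endothelial gene Pecam1 was called at 0.40 ± 0.09 (limma, adjusted p = 0.0927) and the neuronal gene Eno2 at -0.37 ± 0.07 (limma, adjusted p = 0.0649). Of the 7 neuronal markers 4 had a difference above 0, and the other probe of Eno2 differed by -0.04. Of the 8 endothelial markers 6 had a difference above 0. For the lists of oligodendrocyte precursors, neurons, motor neurons, microglia, endothelial cells, meninges and fibroblasts, Schwann cells and red blood cells no exact p was below 0.371. Over the 10 lists the lowest adjusted p was 0.571. All listed markers of these 10 cell types had a tested probe, those of neurons, motor neurons, astrocytes and oligodendrocytes that define spinal cord included. The part of cell types in the differences of the Id genes was not tested.

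The rest of the BMP pathway was read from 7 lists of genes, the Id genes included, of which 58 genes had a tested probe. Outside the 10 members, 6 of 48 genes were called, 2 higher and 4 lower in stressed rats, beside 3.74% of all tested probes. The median difference of the 48 genes was 0.10, beside 0.06 over all tested probes, and the median absolute difference was 0.31, beside 0.17. Stressed and control rats were fully separated at 9 of these 48 genes, 4 with the stressed rats above and 5 with the stressed rats below, beside the 6.65% and 5.44% given for all tested probes.

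The called genes with the lowest adjusted p were both extracellular inhibitors. Chrd encodes chordin, which binds BMP ligands outside the cell and keeps them from their receptors. Its level was -3.92, -4.09, -3.91 and -3.69 in the stressed rats and -3.17, -3.51, -3.14 and -3.08 in the controls. Every stressed rat lay below every control, and control replicate 2 was the lowest control. The difference was -0.68 ± 0.12 (limma, adjusted p = 0.0605), a 1.60-fold higher mean in controls.

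Chrdl1, chordin-like 1, is a related BMP antagonist. Its level was -5.71, -5.95, -6.12 and -5.69 in the stressed rats and -5.20, -5.28, -5.08 and -5.36 in the controls. All stressed rats again lay below all controls, and control replicate 2 was within the range of the other 3. The difference was -0.64 ± 0.12 (limma, adjusted p = 0.0605). The probe was dim, and with normexp background correction the difference was -0.16 (limma, adjusted p = 0.8291). The difference of Chrd was -0.41 with this correction (limma, adjusted p = 0.281). Of the 15 tested extracellular inhibitors and modulators, 2 were lower, 0 were higher and 13 were not called, beside 3.74% of all tested probes called. The median difference of the 15 was 0.00. The largest difference in this list was that of Twsg1, twisted gastrulation, a chordin-binding modulator, at 0.99 ± 0.48 (limma, adjusted p = 0.285). For Twsg1 it was 1.49 without control replicate 2 (limma, adjusted p = 0.00421), 0.25 with normexp and -0.13 with the 5′ minus 3′ covariate.

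Inside the cell, Smad4, the partner that BMP Smads share with the TGF-beta Smads, was higher in stressed rats. Its level was -3.76, -3.49, -3.49 and -3.44 in the stressed rats and -4.38, -3.98, -4.37 and -3.97 in the controls, with no overlap. The difference was 0.63 ± 0.13 (limma, adjusted p = 0.0765). It was the 1 called gene of the 4 Smads in its list, beside 3.74% of all tested probes called. The call was lost with quantile normalization at 0.45 (limma, adjusted p = 0.120), with normexp at 0.40 (limma, adjusted p = 0.185) and with the 5′ minus 3′ covariate at 0.45 (limma, adjusted p = 0.138).

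Of the 9 inhibitory Smads and Smad regulators, 1 was higher, 1 was lower and 7 were not called, beside 3.74% of all tested probes called. Tob1, an antiproliferative protein that binds BMP Smads, was higher by 0.55 ± 0.12 (limma, adjusted p = 0.0865), with stressed rats between -1.35 and -1.02 and controls between -1.89 and -1.44. Smurf1, a ubiquitin ligase that marks BMP Smads and receptors for degradation and is listed in the files as RGD1309707, was lower, with a difference of -0.39 ± 0.08 (limma, adjusted p = 0.0709). Stressed rats lay between -1.47 and -1.36 and controls between -1.14 and -0.86 for Smurf1. The other tested probe of Smurf1, which was dimmer, differed by -0.06 (limma, adjusted p = 0.825), and the groups overlapped at it. The largest difference of this list belonged to Ppm1a, a phosphatase of Smads, at 0.60 ± 0.17 (limma, adjusted p = 0.134). For Ppm1a it was 0.77 without control replicate 2 (limma, adjusted p = 0.00218) and 0.21 with the 5′ minus 3′ covariate. With this covariate Tob1, at 0.34, was no longer called (limma, adjusted p = 0.170).

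Of 10 tested receptors and co-receptors, 1 was lower and 9 were not called, beside 3.74% of all tested probes called. Acvrl1, a type I receptor known from endothelial cells, was lower, with a difference of -0.39 ± 0.09 (limma, adjusted p = 0.0934), with stressed rats between -2.12 and -1.86 and controls between -1.75 and -1.48. Acvr1, a type I receptor for several BMPs, had the largest difference of the receptors at 1.50 ± 0.38 (limma, adjusted p = 0.104). The stressed rats lay between -4.60 and -4.18 and the controls between -6.64 and -4.79 for Acvr1, and control replicate 2 was the highest control. Without that control the difference of Acvr1 was 1.87 (limma, adjusted p = 0.00168). It was 0.589 with normexp (limma, adjusted p = 0.237) and 0.586 with the 5′ minus 3′ covariate (limma, adjusted p = 0.129). The Acvrl1 call was also lost with both of these settings, at -0.32 and -0.36.

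Of 9 tested ligands, 0 were called, beside 3.74% of all tested probes. Bmp8a had the largest difference of the ligands at 0.46 ± 0.22 (limma, adjusted p = 0.272). Bmp3, Bmp5, Bmp10 and Gdf2 have a probe but were above background on too few arrays to be tested. Of 7 other target genes of BMP signalling, 0 were called, beside the same 3.74%. The homeobox gene Dlx5 had the largest difference of the 7 at -0.67 ± 0.28 (limma, adjusted p = 0.236). Of the 48 pathway genes that are no members, 17 passed an unadjusted p below 0.05, beside 20.3% of all tested probes.

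**Figure D4:**
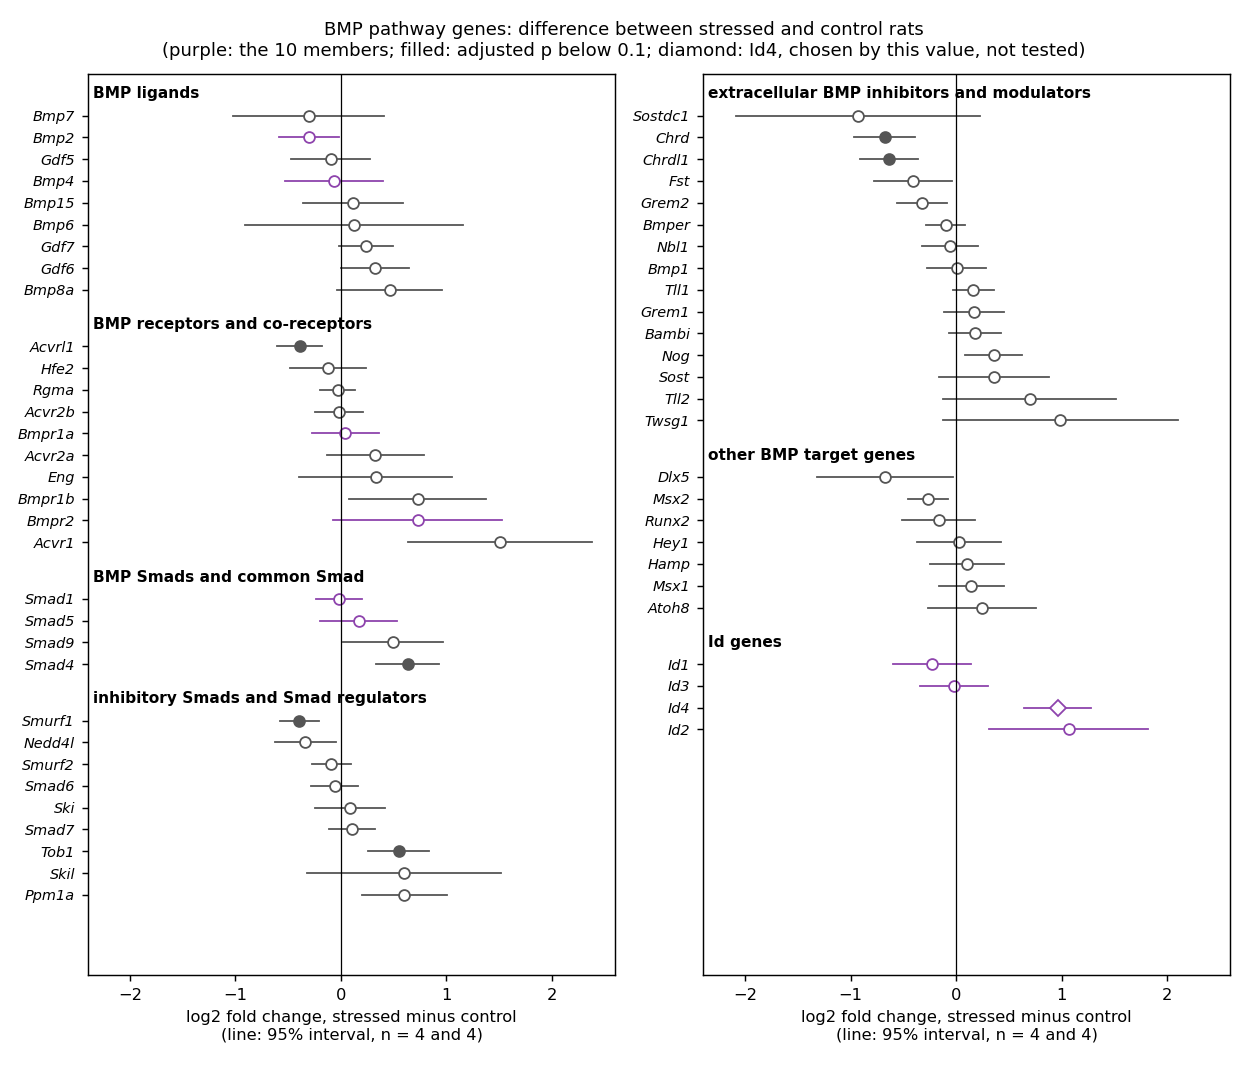
Log2 fold change, stressed minus control, of the tested BMP pathway genes with the 95% interval from limma (4 rats per group), grouped by list. The members are purple, filled points passed an adjusted p of 0.1, and Id4 is a diamond because it was selected on this value. The filled points are Smad4 and Tob1 above 0 and Chrd, Chrdl1, Smurf1 and Acvrl1 below 0.

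**Figure D5:**
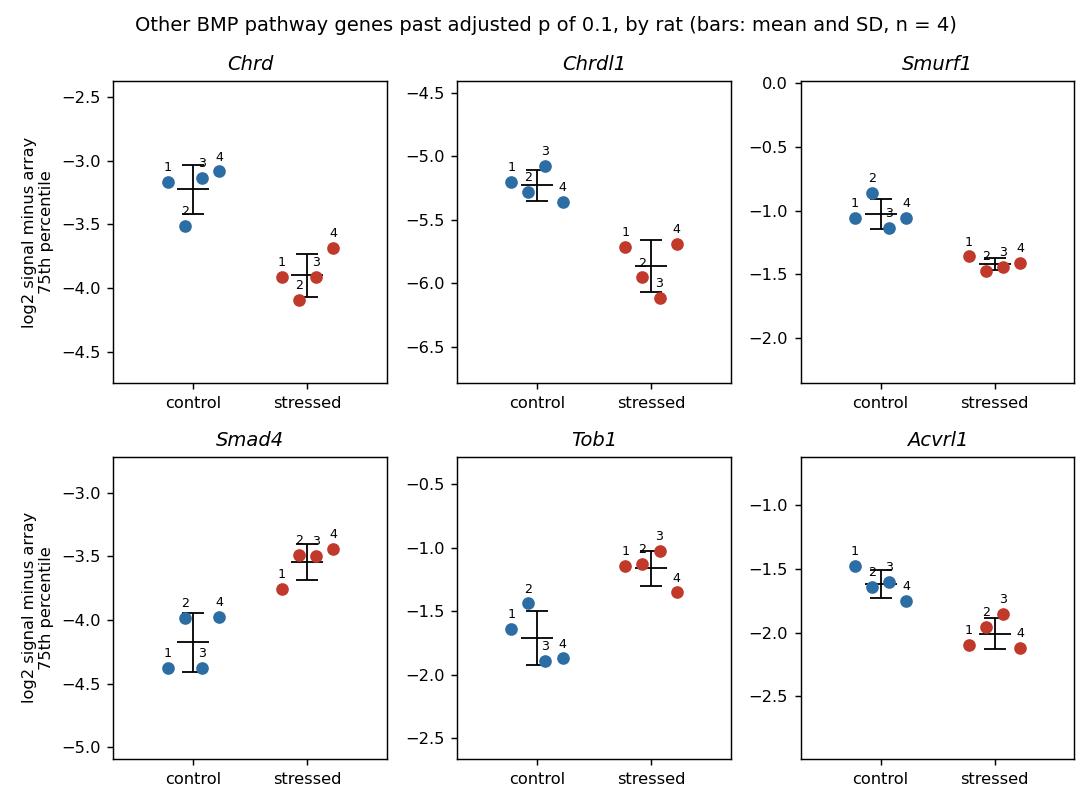
Level of the 6 called pathway genes that are no members in each rat, as log2 signal minus the 75th percentile of the array, with numbers for replicates and bars for the mean and SD of 4 rats. Stressed and control rats do not overlap at the probes shown, the brightest tested probe of each gene. Chrd, Chrdl1, Smurf1 and Acvrl1 are lower and Smad4 and Tob1 higher in stressed rats.

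These calls, like those over all tested probes, depended on which arrays were present. When any 1 array other than control replicate 2 was left out, 0 of the 48 genes that are no members were called. Beside this, at most 72 of all 23678 tested probes were called in these fits. Without control replicate 2, 25 of the 48 were called, beside 42.4% of all tested probes. With normexp background correction 0 of the 48 were called, beside 215 of the 23678 tested probes. With the 5′ minus 3′ value as a covariate 3 of the 48 were called, Chrd, Chrdl1 and Smurf1, beside 2393 of the 23678.

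The helix-loop-helix factors that Id proteins bind or oppose gave 0 called genes of 11, beside 3.74% of all tested probes. At an unadjusted p below 0.05, 3 of the 11 passed, beside 20.3% of all tested probes. Olig1, which directs oligodendrocyte formation, had the largest difference of the list at 0.93 ± 0.27 (limma, adjusted p = 0.140). Its level was 2.93 both in control replicate 2 and in the lowest stressed rat. Without control replicate 2 its difference was 1.22 (limma, adjusted p = 0.000971), and with the 5′ minus 3′ covariate it was 0.25. In the TGF-beta and activin arm, which shares Smad4, 1 of 11 tested genes was called, beside the same 3.74%. Tgfb1, a ligand of this arm, was lower, with a difference of -0.49 ± 0.11 (limma, adjusted p = 0.0859), and Smad2, its receptor-activated Smad, had the largest difference at 0.62 ± 0.16 (limma, adjusted p = 0.107). The Tgfb1 call was lost in 11 of 17 alternatives, among them normexp at -0.26 (limma, adjusted p = 0.475), quantile normalization at -0.65 (limma, adjusted p = 0.107) and the 5′ minus 3′ covariate at -0.31 (limma, adjusted p = 0.156). Leaving out any 1 array other than control replicate 2 also ended it. Smad2 was at 0.75 without control replicate 2 (limma, adjusted p = 0.00336) and at 0.27 with the covariate.

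The gene symbols whose levels over the 8 arrays were most like those of Id4 were found by Pearson correlation among 11807 symbols. They were Asah1, which encodes acid ceramidase, the forkhead factor Foxn3, the ribosome biogenesis factor Rsl24d1, the AMP-activated kinase subunit Prkag2 and the endosomal sorting protein Vps37a. Each had r of 0.99 over the 8 arrays, which share 1 slide and fall apart by group. As their choice by likeness to Id4 implies, each lay higher in all stressed rats than in any control, with control replicate 2 as the highest control. Among the members, Id2 was most like Id4, with r of 0.93 and rank 263, while Id1 (r = -0.68) and Bmp2 (r = -0.72) ran the other way.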

How the data were processed

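RNA of lumbar L6S1 cord from 8 rats was read on Agilent rat gene expression arrays. The authors deposited the spot intensity of each array from Agilent Feature Extraction 10.7.3.1, which per the file headers was background-subtracted and detrended within the array, and a table of the same values rounded (largest difference 0.05). No normalization between arrays was found in them. The paper names dChip for later steps and not its test.

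Spots marked as outliers were set to missing, which left out 10 probes. From the log2 of the deposited signal the 75th percentile of the array was subtracted, and spots of a probe were averaged. Of 30367 probes, 23678 were well above background, at no fewer than 0.5 of their spots, on at least 4 of 8 arrays and were tested with limma 3.58.1 (lmFit and eBayes, two-sided, R 4.3.3, package data.table at 1.17.8), with Benjamini-Hochberg adjustment. Marker lists were compared by exact permutation over the 70 ways to label 4 of 8 arrays as stressed, where the smallest p is 0.0286.

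The brightest tested probe stands for a gene. All members are named, as are pathway genes called at 0.1, the largest difference of each list and the 5 symbols most like Id4. The choice to name Mog, Pecam1 and Eno2 followed their values. The members, the pathway lists (ligands, receptors, Smads, Smad regulators, extracellular inhibitors, other targets, Id genes, helix-loop-helix factors, the TGF-beta arm) and the 10 marker lists were chosen with earlier results of these data known. Probe sequences and rn4 positions are those of the files, and slide rows come from the array positions. Hfe2 is the file's name for the co-receptor hemojuvelin. Ski, Smurf1, Mnx1 and Rbfox3 were found under older names. Bmp8b and Rgmb had no matching probe name and were not analysed here.

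Alternatives were quantile normalization, normexp background correction with an offset of 50, the table of values, testing dim probes as well, testing only probes above background on all 8 arrays, trend with robust estimation, array weights, replicate number as a block, the 5′ minus 3′ value as a covariate, and leaving out each array in turn.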

Additional observations from a re-analysis of the deposited data

Results flagged for a closer look

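Of 48 groups of 4 rats, 3 held a rat whose gap to its nearest neighbour took more of the group's range than Dixon's 95% limit for 4 samples, and chance gives about 1 in 20 groups, here 2.4. Bmpr2 in control replicate 3 stood below the other controls, with a gap of 0.983 of the range, and spots of this probe on any array differed by an SD of at most 0.139. Bmp4 in stressed replicate 4 stood below the other stressed rats, with a gap of 0.835 of the range. Ppm1a, the Smad phosphatase, was higher in stressed replicate 2 than in the other stressed rats, with a gap of 0.848 of the range.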

How the results depend on the processing

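Under the 17 alternatives the difference of Id4 lay between 0.66 with the 5′ minus 3′ value as a covariate and 1.10 without control replicate 2. Id4 was selected on this difference, and all its stressed rats lay above all controls. Leaving out an array could therefore not turn its sign, and the constant sign is no support. The number of probes called at 0.1 and at 0.05 was 885 and 113. It became 215 and 39 with normexp, 3010 and 13 with no filter on dim probes, 11983 and 9638 with array weights and 2393 and 658 with the covariate. At 0.05 it became 237 with a filter on all arrays and 353 with trend and robust estimation. Of the BMP pathway genes that are no members 6 were called, against 0 with normexp, 27 with array weights and 3 with the covariate. Of the 9 members other than Id4, 0 were called, against 5 with array weights, which gave control replicate 2 a weight of 0.107. With the replicate block, 0 probes, 0 of these members and 0 of these pathway genes were called, although 4292 probes passed an unadjusted p below 0.05. Deviations of rats with the same number correlated by -0.09 to 0.31 and not above 0.1 in every pair. These values are too few to show whether the numbers pair the rats, and the main fit has no pairing. Rats with the same number also shared a slide column, so the block stands for the column as well. When 1 array was left out, 0 to 10036 probes passed at 0.1 and 0 to 7654 at 0.05, with 0 to 3 of these members and 0 to 25 of these pathway genes. Control replicate 2 gave the upper end of these ranges, and without any other single array at most 72 probes passed at 0.1.

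Some differences that were not called changed sign. With array weights Bmp4 was at 0.0154 and Bmpr1a at -0.0602. With the covariate Id1 was at 0.0648, Smad1 at 0.101, Smad5 at -0.16 and Twsg1 at -0.13, the last against 0.99 without the covariate. When 1 array was left out, Id3 lay between -0.147 and 0.0436, Bmp4 between -0.166 and 0.0928, Bmpr1a between -0.0516 and 0.130 and Smad1 between -0.0708 and 0.0431. The cause was not tested. The difference of Bmpr2 was 0.35 without control replicate 3, below the 0.73 with all arrays. The mean over several probes in place of the brightest changes no member, since each has 1 probe. Dim probes such as those of Bmp2 and Chrdl1 are limited by their signal over background.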
